A study of Mus musculus with 15 samples.

Results

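The 10 genes described here encode enzymes that break down pyrimidine nucleosides and bases (Tymp, Upp1, Upp2, Dpyd, Dpys, Upb1 and Cda, 7 genes) or make pyrimidine nucleotides (Cad, Umps and Ctps, 3 genes), out of 55450 gene rows measured in mouse liver. They were chosen by symbol, with earlier results of these data in view. Tymp was listed for its difference between Old and Adult livers, and Ctps for its differences between Old and Adult and between PDX and Old, so the values of these genes in those contrasts are given as a description and carry no test. The livers came from 15 female C57BL/6 mice, 1 mRNA library per mouse and 5 mice per group. Adult mice, A1 to A5, began the study at 6 months of age and Old mice, O1 to O5, at 22 months, and all of them were gavaged with the corn oil vehicle. PDX mice (P1 to P5) also began at 22 months and were gavaged daily with protectin DX, a lipid mediator made from docosahexaenoic acid, at 30 ng per g of body weight in corn oil. These are ages at the start, and the livers were taken at the end of the study, when all mice were older. The labels give 9 weeks of gavage and the series description gives 8 weeks. Among these 15 mice PDX was given only to mice that began at 22 months of age.

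Pyrimidines are broken down in the liver in a fixed order. Phosphorylases split the sugar from the base: thymidine phosphorylase (Tymp) acts on thymidine, and the uridine phosphorylases Upp1 and Upp2 act on uridine, with Upp2 being the form known from liver. The freed uracil or thymine is reduced by dihydropyrimidine dehydrogenase (Dpyd), the rate-limiting step, the ring is opened by dihydropyrimidinase (Dpys), and beta-ureidopropionase (Upb1) releases beta-alanine or beta-aminoisobutyrate. Cytidine deaminase (Cda) feeds cytidine into the same route by turning it into uridine. In the opposite direction, Cad carries out the opening steps of de novo synthesis in a single multifunctional protein, Umps makes uridine monophosphate, and Ctps turns uridine triphosphate into cytidine triphosphate. The comparisons ask how this route differed with age in vehicle-treated livers and whether PDX-treated livers of the same age differed from either group.

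Counted read pairs ranged from 22424383 to 36070835 per mouse, and levels are given as counts relative to library size (CPM) scaled by TMM factors, or per kilobase of exon (RPKM) where genes are set against each other. All 10 members passed the filter on low counts that left 15808 genes for testing. Of the Old mice, O2 and O5 stood apart in the whole transcriptome: their median root mean square distance in log2 CPM to the other mice of their group was 1.22 and 1.48, against 0.93 to 1.03 in the other Old mice and 0.48 to 0.63 in Adult and PDX mice. Where a value of Old against Adult for a pyrimidine gene named below moved by over 1.5 times without O2 and O5, it is given with and without them. The samples were liver by their markers: 6 hepatocyte genes summed to 73240 CPM in O5, to 78560 CPM in O2 and to between 118700 and 207500 CPM in the other mice. Some markers of other cells moved with age. Of 5 tested neutrophil markers 4 were higher in Old than in Adult livers, and of 6 B cell markers 4 were higher, with an adjusted p under 0.05 in the quasi-likelihood test of edgeR (p-values adjusted after Benjamini and Hochberg, here and below). So were 2 of 6 stellate cell markers and 1 of 5 tested proliferation markers, where 4.71% of all tested genes passed as higher. No listed marker of macrophages, T and NK cells, erythroid cells, endothelial cells or cholangiocytes passed. The summed B cell markers ranged from 19.4 to 40.7 CPM in Adult, from 167 to 722 CPM in Old and from 189 to 674 CPM in PDX mice, and the 6 neutrophil markers from 2.50 to 5.24, from 8.03 to 132 and from 12.6 to 51.0 CPM. Among the hepatocyte zones, 3 of 7 pericentral markers were lower in Old than in Adult livers by the same test, and their sum ranged from 9766 to 12090 CPM in Adult, from 2788 to 6322 in Old and from 3392 to 5031 in PDX mice. Of 6 periportal markers 1 was lower, with sums of 4863 to 7421, 2777 to 7102 and 3205 to 6214 CPM. Of all tested genes 2.07% passed as lower in Old. The part of these shifts in the results below was not tested, and in bulk liver RNA fewer cells of a type and less RNA per cell cannot be told apart.

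The stretches upstream of Tymp and Cad are shown because these genes had the differences that held in both older groups, Tymp lower and Cad higher. The letters come from RefSeq's mouse assembly GRCm38.p6, read 5′ to 3′ on the strand of each gene, and end just before the annotated gene. Capitals mark CCAAT boxes (CCAAT or its reverse complement ATTGG) in Tymp and GC boxes (GGGCGG or its reverse complement CCGCCC) in Cad. The Tymp stretch is chr15:89377040-89377286 on the minus strand and the Cad stretch is chr5:31054624-31054779 on the plus strand.
Tymp: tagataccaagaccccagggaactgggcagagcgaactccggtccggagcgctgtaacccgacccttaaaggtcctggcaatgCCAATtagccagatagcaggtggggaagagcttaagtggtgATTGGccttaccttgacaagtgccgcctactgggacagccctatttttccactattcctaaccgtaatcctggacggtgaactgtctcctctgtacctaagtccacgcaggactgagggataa
Cad: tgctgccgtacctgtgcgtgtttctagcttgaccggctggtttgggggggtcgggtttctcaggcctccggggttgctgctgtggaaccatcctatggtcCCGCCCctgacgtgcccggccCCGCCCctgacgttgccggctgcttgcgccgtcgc
In the 250 bases before each start, Tymp held 2 CCAAT boxes and no GC box, and Cad held 2 GC boxes and no CCAAT box. A CCAAT box was present in 33.8% and a GC box in 32.7% of 32851 mouse promoter windows of this length, on either strand. Neither window held TATAAA, found in 12.4% of windows, or the E-box CACGTG, found in 6.02%. Upstream sequence was matched for 9 of the 10 members, and 0 of these 9 held that E-box. Bases after the start were not searched, so an E-box there would not be seen. These matches describe letters in a window and were not measured as binding.

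Tymp was the member with the widest gap between ages. It was measured at 155, 178, 192, 135 and 178 CPM in mice A1 to A5, at 35.4, 13.6, 50.5, 36.5 and 27.3 CPM in O1 to O5, and at 25.8, 27.4, 32.5, 41.0 and 45.8 CPM in P1 to P5. Every older mouse was thus below every Adult mouse, and the Old and PDX mice overlapped throughout. The group means were 168 ± 22.5 CPM in Adult, 32.7 ± 13.5 CPM in Old and 34.5 ± 8.66 CPM in PDX mice (mean ± SD, n = 5 each), so that the Old mean was 19.5% of the Adult mean. The log2 fold change of Old against Adult was -2.36 (SE 0.28), given without a test because this contrast chose the gene. Of all tested genes, 2.07% passed as lower in Old and 4.48% had Old wholly below Adult, with 8.13% not overlapping in either direction; since this contrast chose Tymp, nothing is read from that.

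Between PDX and Adult livers, a contrast that shares the Adult mice with the choosing one, the log2 fold change of Tymp was -2.28 (SE 0.28). It is also given without a test, since the Adult values entered the choice of the gene. The PDX mean was 20.6% of the Adult mean. For PDX against Old, the log2 fold change of Tymp was 0.08 with a 95% confidence interval from -0.49 to 0.65, and without O2 and O5 it was -0.23.

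**Figure D1:**
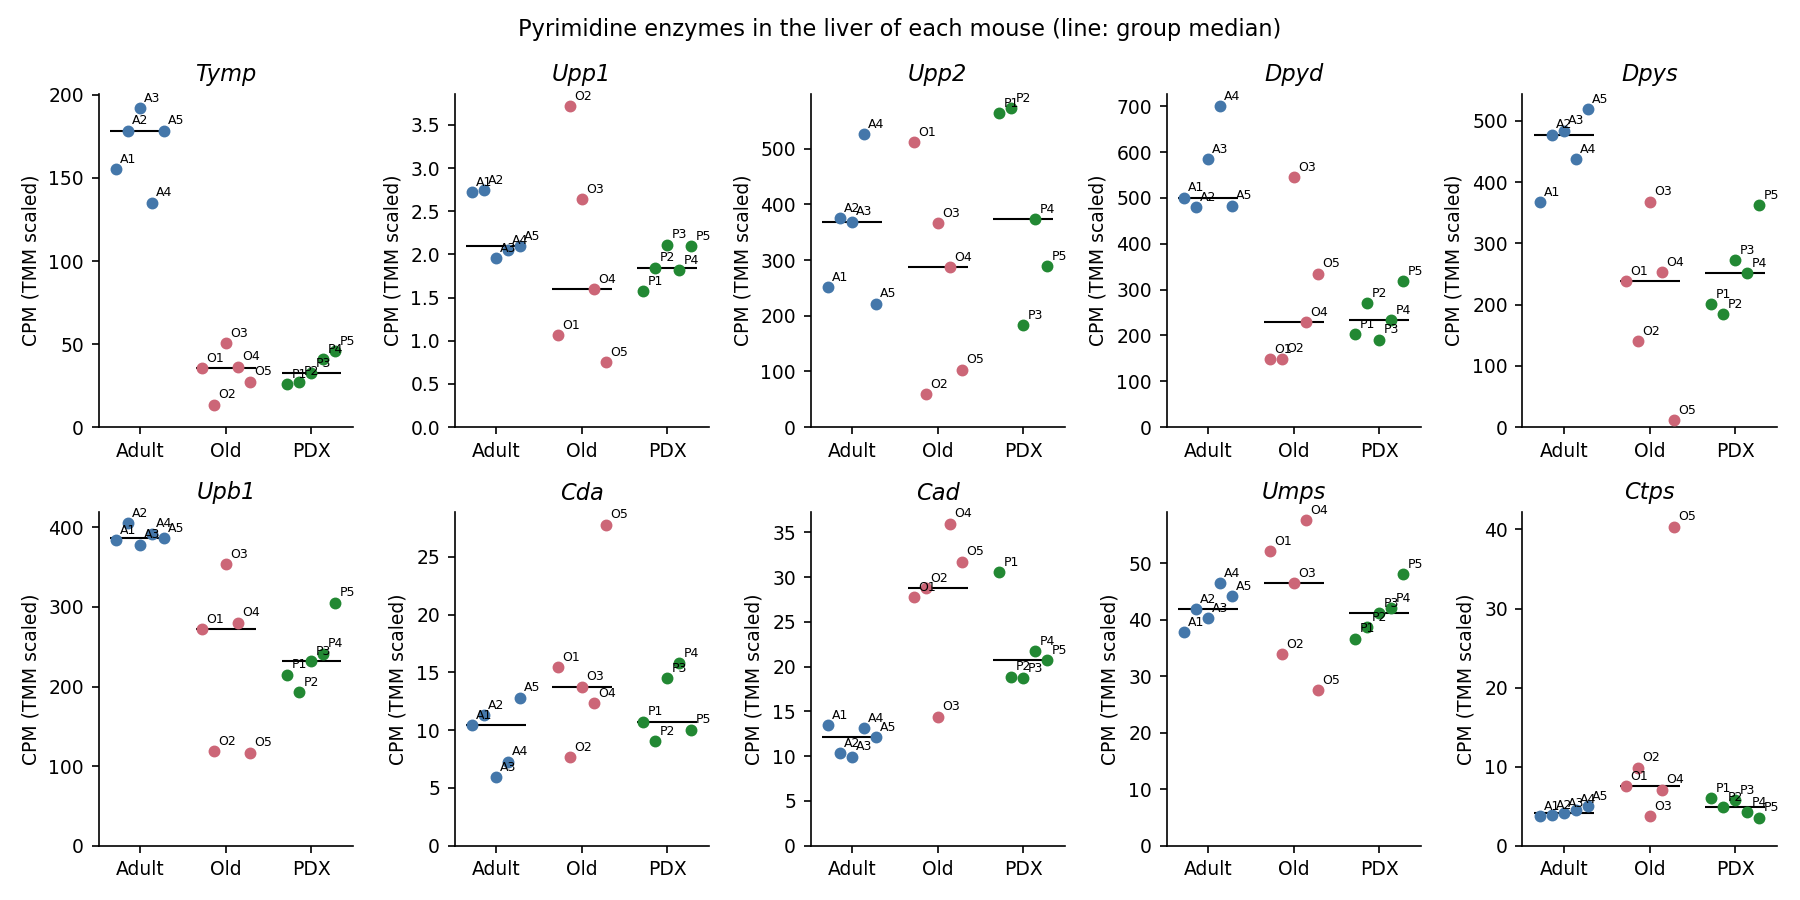
Each panel plots 1 gene in CPM scaled by TMM factors (linear axis from 0) for the 15 mice, with the mouse named beside its point and a line at the group median. Tymp sits at 135 to 192 CPM in Adult mice and at 13.6 to 50.5 CPM in the 10 older mice, Cad is higher in each older mouse than in each Adult mouse, and Ctps and Dpys each have 1 Old mouse, O5, far from the rest.

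The Tymp locus overlaps a second gene, which bears on how its reads were counted. Tymp lies on chromosome 15 from 89371931 to 89377039 (GRCm38, minus strand), and Sco2, a copper chaperone of cytochrome c oxidase, lies on the same strand from 89371637 to 89373846. The exons of both share 856 bases, leaving 1181 bases that belong to Tymp alone and 397 that belong to Sco2 alone, and read pairs assigned to more than 1 gene were not counted. Sco2 was measured at 33.0, 34.8, 39.7, 30.3 and 34.4 CPM in A1 to A5, at 14.1, 6.76, 13.3, 13.4 and 17.6 CPM in O1 to O5 and at 9.59, 10.5, 12.6, 14.0 and 14.5 CPM in P1 to P5. Its Old and PDX groups lay wholly below the Adult group. Sco2 fell by 1.40 on the log2 scale between Adult and Old (SE 0.20) and by 1.49 between Adult and PDX (SE 0.20). Both values are given without a test, since Sco2 was taken up for its overlap with Tymp, a gene chosen on Old against Adult. Reads of a transcript that runs through both genes and reads of each gene's own transcript cannot be told apart in these counts, so the Sco2 and Tymp values are not separate measurements.

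**Figure D2:**
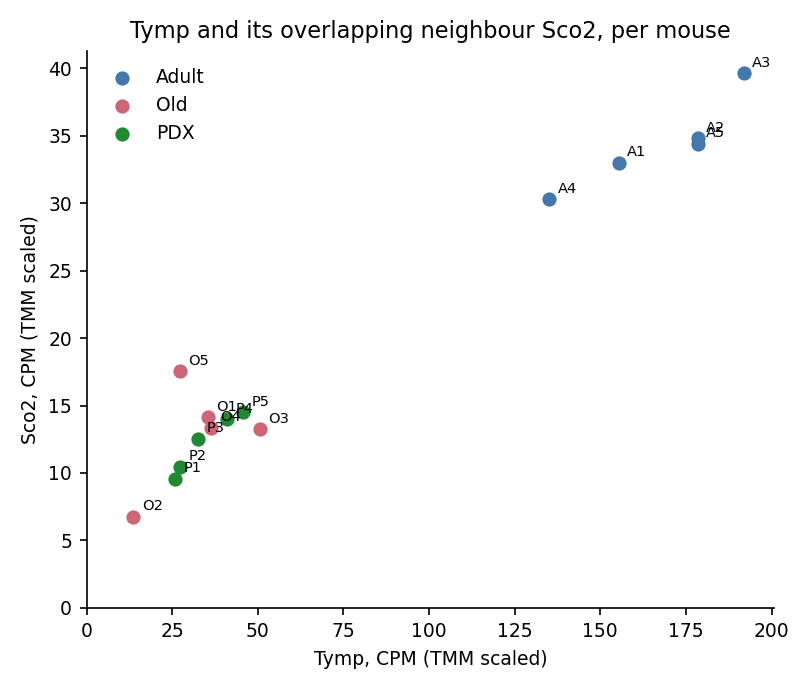
The scatter plots Sco2 against Tymp in CPM scaled by TMM factors, 1 point per mouse, with both axes from 0. The 5 Adult mice lie at upper right (Sco2 at 30.3 to 39.7 CPM) and the 10 older mice at lower left (Sco2 at 6.76 to 17.6 CPM), with no mouse between.

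Of the tested neighbours within 20 kb other than Sco2, none passed the threshold between Old and Adult. Ncaph2, a condensin II subunit, overlaps Tymp by 535 exonic bases on the opposite strand, which the strand-specific counting separates. Its log2 fold change of Old against Adult was 0.20 (SE 0.12, adjusted p = 0.290, edgeR). Lmf2, a lipase maturation factor, had 0.12 (SE 0.12, adjusted p = 0.554), and Odf3b, a gene of the outer dense fiber family that lies 410 bases from Tymp, had -0.77 (SE 0.39, adjusted p = 0.214). Syce3 and Klhdc7b had too few counts to be tested. Across the 15 mice, the genes whose log2 CPM followed Tymp most closely among 12023 genes that averaged 1 or more on that scale were Cyp2d22 (Pearson r = 0.973), Sco2 (0.966), the microsomal glutathione transferase Mgst1 (0.961), the carboxylesterase Ces1b (0.955) and the ferredoxin Fdx1 (0.952). With the group means removed, r was 0.938 for Cyp2d22, 0.868 for Mgst1, 0.837 for Fdx1, 0.799 for Ces1b and 0.789 for Sco2. These are descriptions over 15 libraries that also share age group.

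Neither uridine phosphorylase differed detectably between groups. Upp1 was low, at 1.96 to 2.75 CPM in Adult, 0.757 to 3.72 CPM in Old and 1.58 to 2.11 CPM in PDX mice, with overlapping groups. Its log2 fold change was -0.24 between Old and Adult (95% confidence interval -0.97 to 0.49, adjusted p = 0.684, edgeR) and -0.38 without O2 and O5. Upp2 carried most of the uridine phosphorylase message: per length, the median ratio of Upp2 to Upp1 RPKM within a mouse was 34.5 in Adult, 35.1 in Old and 51.8 in PDX mice.

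Upp2 also varied widely between mice of a group: its SD was 34.5% of the mean in Adult, 70.4% in Old and 43.1% in PDX mice, and of the other members only Ctps in Old mice (110%) had a larger ratio within the same group. It was measured at 252, 375, 369, 526 and 222 CPM in A1 to A5, at 511, 59.6, 366, 288 and 103 CPM in O1 to O5, and at 564, 573, 183, 374 and 290 CPM in P1 to P5. The 3 groups overlapped, and only O2 and O5 were below every other mouse. Old against Adult gave a log2 fold change of -0.39 (95% confidence interval -1.43 to 0.64, adjusted p = 0.634), 0.58 for PDX against Old (-0.46 to 1.61, adjusted p = 0.806) and 0.19 for PDX against Adult (-0.85 to 1.22, adjusted p = 0.875), all by edgeR. Without O2 and O5 the Old against Adult value turned to 0.17. The genes that followed Upp2 most closely over the 15 mice were the complex I subunit gene Ndufc1 (r = 0.900), the coagulation factor gene F9 (0.897) and Serpina1d (0.895), again as a description.

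The 3 enzymes that reduce and cleave the ring, Dpyd, Dpys and Upb1, were lower on average in both older groups, and none passed the threshold in edgeR's fit of all 15 mice. DESeq2's Wald test on the same mice called Dpyd (adjusted p = 0.0216) and Upb1 (adjusted p = 0.0386) as lower in Old and Dpyd (adjusted p = 0.00578) as lower in PDX than in Adult livers. That test called 16.2% of all genes between Old and Adult and 8.88% between PDX and Adult. Dpyd was measured at 501, 480, 584, 700 and 483 CPM in A1 to A5, at 149, 150, 546, 229 and 335 CPM in O1 to O5 and at 204, 270, 191, 234 and 318 CPM in P1 to P5. Of the Old mice O3 alone lay within the Adult range, and every PDX mouse was below every Adult mouse. The log2 fold change of Dpyd was -0.96 (SE 0.31, adjusted p = 0.0682) for Old and -1.18 (SE 0.31, adjusted p = 0.0591) for PDX against Adult in edgeR's test. Without O3 the Old value was -1.35 with an adjusted p of 0.00761.

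Dpys was measured at 367, 478, 484, 437 and 519 CPM in A1 to A5, at 238, 140, 368, 253 and 11.7 CPM in O1 to O5 and at 201, 185, 273, 251 and 362 CPM in P1 to P5. O3 again reached the Adult range, while O5 was at 2.56% of the Adult mean, the lowest value of any member in any mouse on that scale. The log2 fold change was -1.18 (SE 0.53, adjusted p = 0.164) for Old and -0.84 (SE 0.53, adjusted p = 0.383) for PDX against Adult, by edgeR. Upb1 was the steadiest member in Adult livers, at 384, 405, 378, 392 and 387 CPM in A1 to A5. It was at 272, 119, 354, 280 and 117 CPM in O1 to O5 and at 215, 193, 232, 241 and 306 CPM in P1 to P5, so that both older groups lay wholly below the Adult group. Its log2 fold change was -0.77 (SE 0.27, adjusted p = 0.0822) for Old and -0.71 (SE 0.27, adjusted p = 0.149) for PDX against Adult, by edgeR. For Old against Adult, Dpys passed the threshold without O5 (-0.87, adjusted p = 0.0368) and Upb1 without O3 (-0.98, adjusted p = 0.0274). Without both O2 and O5 the estimates were smaller and did not pass, at -0.66 in Dpys (adjusted p = 0.0760) and -0.36 in Upb1 (adjusted p = 0.132), and Dpyd had -0.83 (adjusted p = 0.136).

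All 3 groups share a single estimate of the spread of a gene in this fit, so the Old mice enter the error of PDX against Adult too. In the fit without O2 and O5, Dpyd (-1.16, adjusted p = 0.00842), Dpys (-0.83, adjusted p = 0.00541) and Upb1 (-0.70, adjusted p = 0.00139) were lower in PDX than in Adult livers by edgeR's test. Of the 8 members other than Tymp and Ctps, 4 passed the threshold between PDX and Adult in that fit, 1 higher and 3 lower, where 24.6% of all tested genes passed. In the fit of all 15 mice 1 of these 8 passed, Cad, where 2.66% of all genes did (1.76% higher and 0.898% lower). Counted by overlap, PDX and Adult mice were wholly apart in 4 of these 8 members, 3 lower and 1 higher. Of all tested genes 19.9% were wholly apart, 9.34% lower and 10.5% higher.

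The enzymes after ring opening were also lower on average in both older groups. They are Abat and Agxt2, aminotransferases that act on beta-alanine and beta-aminoisobutyrate, and Aldh6a1, the methylmalonate semialdehyde dehydrogenase further along. Aldh6a1 was measured at 494, 504, 550, 562 and 512 CPM in A1 to A5, at 237, 152, 481, 323 and 181 CPM in O1 to O5 and at 290, 293, 279, 323 and 362 CPM in P1 to P5. Both older groups lay below the Adult group without overlap. Aldh6a1 fell by 0.93 on the log2 scale between Adult and Old (SE 0.25, adjusted p = 0.0386, edgeR), and this call was lost in 11 of 15 fits that each left out 1 mouse. Agxt2 had -1.03 (SE 0.35, adjusted p = 0.0755) and Abat -0.89 (SE 0.32, adjusted p = 0.0917) by edgeR, and DESeq2's Wald test called both as lower (adjusted p = 0.0285 and 0.0418). Without O2 and O5 none of the 3 passed edgeR's test, with -0.59 in Aldh6a1 (adjusted p = 0.0623), -0.59 in Agxt2 (adjusted p = 0.191) and -0.46 in Abat (adjusted p = 0.235). Between PDX and Adult the 3 genes had values from -1.02 to -0.76 with adjusted p from 0.107 to 0.183 in edgeR's fit of all 15 mice, and for all 3 genes the PDX mice lay wholly below the Adult mice. In each of Dpys, Upb1, Abat, Agxt2 and Aldh6a1, the Old mice O3, O4 and O1 followed in that order from the top, above O2 and O5.

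In O3 most of these genes were near Adult levels and Tymp was not. In this mouse Dpyd was at 99.2%, Dpys at 80.6%, Upb1 at 90.8%, Abat at 110%, Agxt2 at 96.3% and Aldh6a1 at 91.6% of the Adult mean. Tymp in the same mouse was at 30.1%. In O2, by contrast, Tymp was at 8.12% and the ring cleavage genes were at 27.2% to 30.7%. The sum of the 7 pericentral markers was 6322 CPM in O3 and 2788 CPM in O2, and the sum of 6 macrophage markers was 564 CPM in O3 and 2184 CPM in O2. The part of these cell markers was not tested. Hour of sampling is not given per mouse, and the clock output gene Dbp, which cycles strongly in liver, was at 56.7 CPM in O3 and 189 CPM in A4 against 1.30 to 40.5 CPM in the other mice. Dbp is 1 of 12 listed clock genes, and the others did not all set O3 apart. The sum of the 12 was highest in O5, at 866 CPM, beside 828 CPM in A4 and 528 CPM in O3. Arntl was at 2.45 CPM in A4 and at 25.6 CPM in O3. The part of these clock genes in the values of O3 was not tested.

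**Figure D3:**
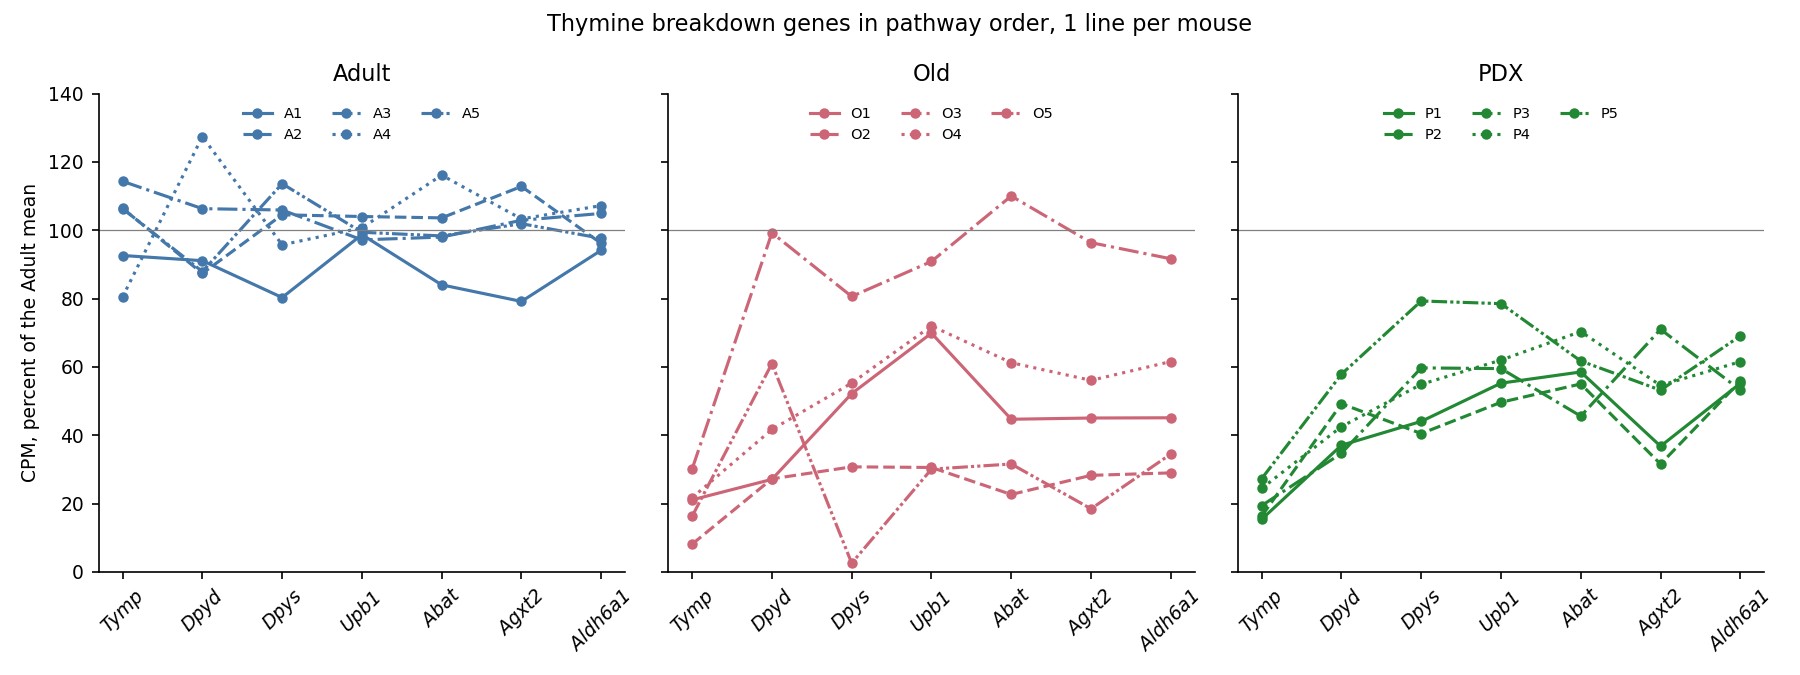
The 3 panels plot the CPM of 7 genes as a percent of the Adult mean (linear axis from 0), in the order of the breakdown route from Tymp to Aldh6a1, with 1 line per mouse. In the Old panel the line of O3 lies at 80.6% to 110% for all genes but Tymp (30.1%), O5 drops to 2.56% at Dpys, and all PDX lines stay below 80%.

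Cda did not share the lower levels of the ring cleavage genes. It ranged from 5.93 to 12.8 CPM in Adult, from 7.64 to 27.8 CPM in Old and from 9.07 to 15.8 CPM in PDX mice, and all 3 groups overlapped. The highest value, 27.8 CPM, belonged to O5. For Old against Adult it had 0.69 on the log2 scale (SE 0.30, adjusted p = 0.153) and 0.33 for PDX against Adult (SE 0.30, adjusted p = 0.571), by edgeR.

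On the side of synthesis Cad was higher in both older groups. It was measured at 13.4, 10.3, 9.94, 13.1 and 12.1 CPM in A1 to A5, at 27.8, 28.7, 14.4, 36.0 and 31.7 CPM in O1 to O5 and at 30.5, 18.9, 18.7, 21.7 and 20.7 CPM in P1 to P5. The lowest older value, O3 at 14.4 CPM, was just above the highest Adult value, A1 at 13.4 CPM, so neither older group overlapped the Adult group. Cad rose by 1.23 on the log2 scale between Adult and Old (SE 0.21, adjusted p = 0.00836, edgeR), and the call held in 15 of 15 fits that each left out 1 mouse. Of all tested genes 4.71% passed as higher in Old and 3.65% had Old wholly above Adult.

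Between PDX and Adult the rise of Cad was 0.91 (SE 0.21, adjusted p = 0.0314, edgeR). This call was lost in 8 of 15 fits without 1 mouse, those without any Adult mouse, P1, P2 or P4, with an adjusted p of up to 0.0953. For PDX against Old, Cad had a log2 fold change of -0.33 with a 95% confidence interval from -0.77 to 0.12 (adjusted p = 0.793, edgeR), and the groups overlapped.

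Umps did not differ detectably between ages. It ranged from 37.8 to 46.5 CPM in Adult, from 27.5 to 57.5 CPM in Old and from 36.6 to 48.1 CPM in PDX mice. The log2 fold change was 0.05 for Old against Adult, with a 95% confidence interval from -0.31 to 0.41 (adjusted p = 0.884, edgeR), and -0.03 for PDX against Adult (-0.39 to 0.33, adjusted p = 0.950). The interval of Old against Adult did not reach the estimate for Cad in Old livers. The Old against Adult value of Umps without O2 and O5 was 0.32 (adjusted p = 0.0826).

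Ctps stood apart because of 1 mouse. It was measured at 3.77, 3.84, 4.10, 4.57 and 4.96 CPM in A1 to A5, at 7.52, 9.86, 3.73, 7.10 and 40.4 CPM in O1 to O5 and at 6.00, 4.90, 5.77, 4.25 and 3.54 CPM in P1 to P5. O5 was above every other mouse, O1, O2 and O4 were between 7.10 and 9.86 CPM, and O3 was just below the lowest Adult mouse, A1. The log2 fold change of 1.69 (SE 0.49) for Old against Adult and of -1.49 (SE 0.48) for PDX against Old are the values that chose the gene and carry no test. Without O5 the former was 0.73 and the latter -0.53, and without both O2 and O5 they were 0.53 and -0.31. PDX against Adult gave 0.20 (95% confidence interval -0.82 to 1.22). The related gene Ctps2, which encodes another CTP synthase, was at 39.3 CPM in O5 and at 13.1 to 17.1 CPM in the other 14 mice.

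**Figure D4:**
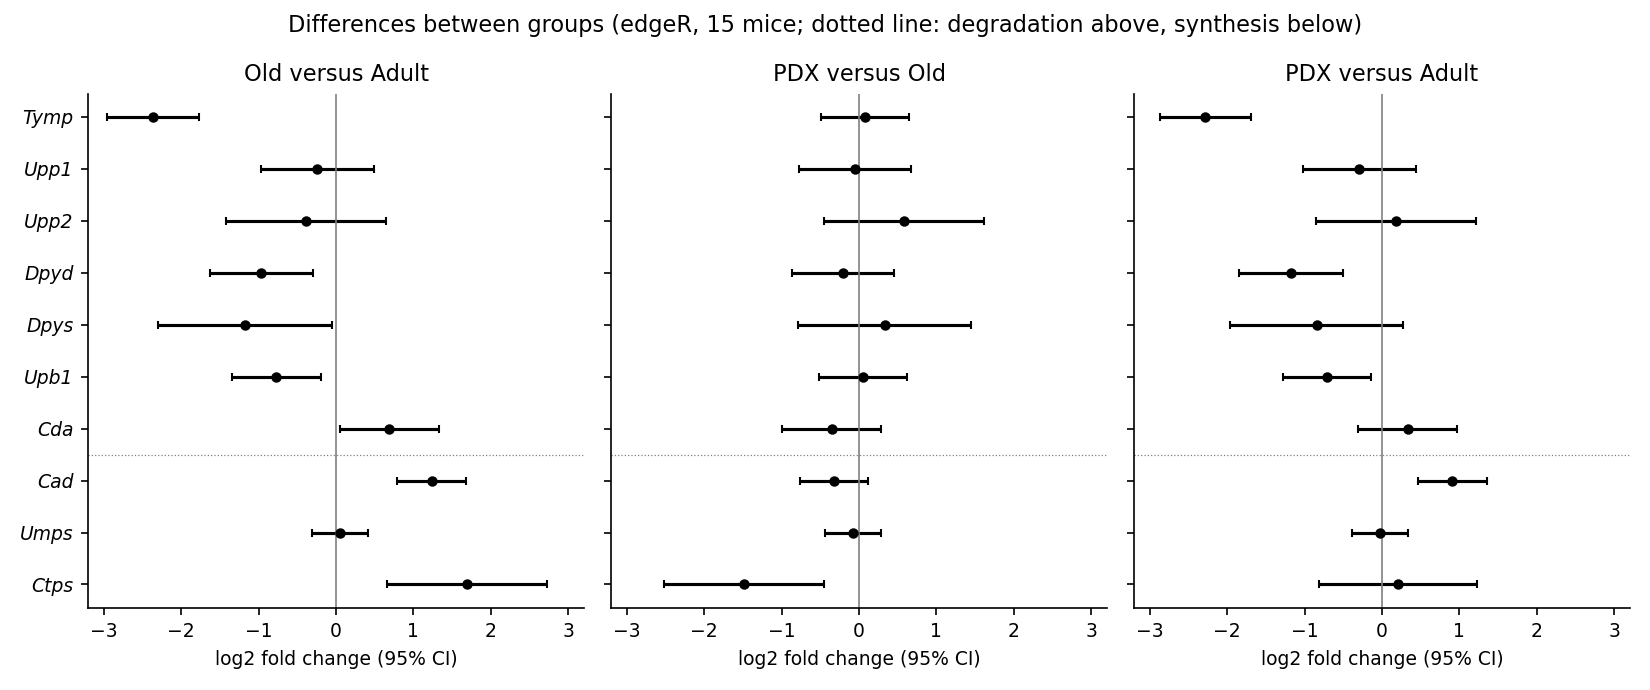
Points are log2 fold changes from edgeR's fit of 15 mice and bars are 95% confidence intervals, for the 7 degradation genes above the dotted line and the 3 synthesis genes below it, in the 3 comparisons. Tymp lies at -2.36 and -2.28 in both contrasts with Adult, Cad at 1.23 and 0.91, and between PDX and Old only the interval of Ctps, a gene chosen on that contrast, leaves out 0.

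Between PDX and Old livers no member passed the threshold, and 0% of all 15808 genes did in edgeR's quasi-likelihood test. At an unadjusted p under 0.05 that test gave 834 genes, or 5.28%, and the Wald test of DESeq2 also gave 0 genes at an adjusted p under 0.05 and 1013 at an unadjusted one. No member had PDX values wholly apart from Old values, and 0.342% of all tested genes did. Of the 7 degradation genes 4 had a PDX estimate above Old and 3 below, with a median log2 fold change of 0.06 against -0.07 over all tested genes. The split without O2 and O5 was 2 above and 5 below, with a median of -0.19. All 3 synthesis genes had estimates below Old, from -1.49 in Ctps to -0.07 in Umps. The ratio of SD to mean was smaller in PDX than in Old mice for 10 of the 10 members, as it was for 88.8% of all tested genes, and without O2 and O5 for 5 of 10 members and 60.6% of genes. With all mice it was 25.1% against 41.4% in Tymp, 21.3% against 58.9% in Dpyd, 27.5% against 66.1% in Dpys and 17.8% against 46.3% in Upb1.

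Set against each other, the degradation genes had a median log2 fold change of -0.77 and the synthesis genes of 1.23 between Old and Adult, beside 0.07 over all tested genes. These medians were -0.38 and 0.53 without O2 and O5, beside 0.01. Of the 7 degradation genes 6 had estimates below 0, or 5 without O2 and O5, and of the 3 synthesis genes all had estimates above 0. Both lists include a gene chosen on this contrast. Of the 8 other members 1, Cad, passed edgeR's test, where 6.78% of all genes did. Among these 8, Upb1 alone had Old wholly below Adult, which 4.48% of all tested genes had, and Cad alone had Old wholly above. Between PDX and Adult the medians were -0.71 and 0.20, beside -0.01 over all tested genes. For each mouse, a mean of the 7 degradation genes minus a mean of the 3 synthesis genes was taken, each gene as a z-score of log2 CPM over the 15 mice. It was 1.23, 1.43, 1.16, 0.79 and 0.90 in A1 to A5, -1.12, -1.31, 0.78, -1.39 and -1.78 in O1 to O5 and -0.46, -0.04, -0.21, 0.04 and -0.02 in P1 to P5.

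In words, O3 lay just under the lowest Adult mouse, the other Old mice lay far below, and the 5 PDX mice lay together between them and the Adult mice. The group means were 1.10 ± 0.26 in Adult, -0.96 ± 1.00 in Old and -0.14 ± 0.20 in PDX mice (mean ± SD, n = 5 each). Without Tymp and Ctps, the genes chosen on these contrasts, the means were 0.99 ± 0.28 in Adult, -0.78 ± 0.92 in Old and -0.21 ± 0.19 in PDX mice. No test was made of this value, since its genes were chosen with results known.

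**Figure D5:**
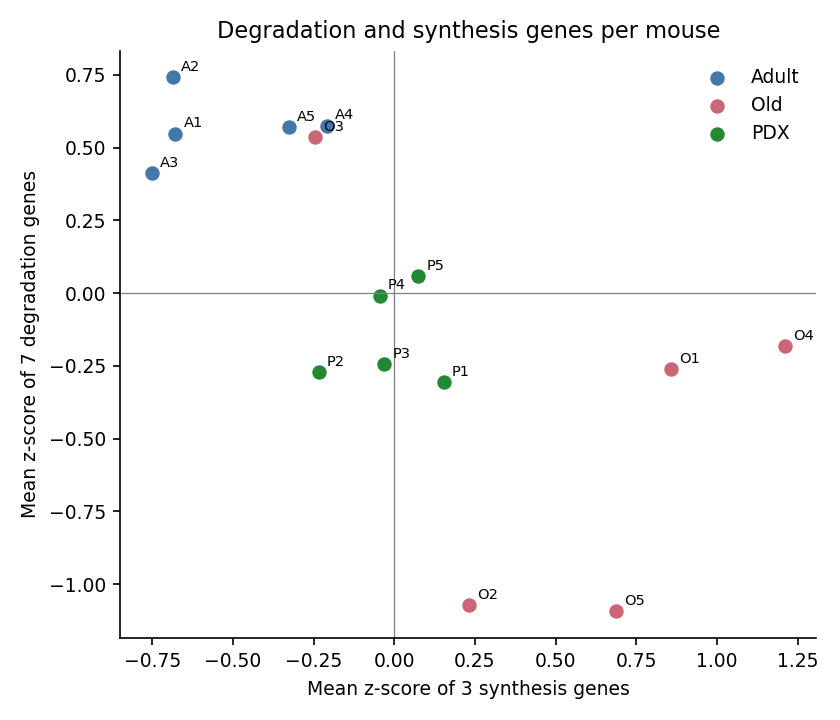
Each point is 1 mouse, with the mean z-score of the 3 synthesis genes on the horizontal axis and of the 7 degradation genes on the vertical axis, both without unit. Adult mice and O3 lie at upper left, PDX mice near the centre, O1 and O4 at the right (0.86 and 1.21 for synthesis) and O2 and O5 at the bottom (-1.07 and -1.09 for degradation).

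Per length of exon, which allows genes to be ranked, Dpys (122 ± 15.5 RPKM) and Tymp (82.4 ± 11.1) had the highest levels of the members in Adult livers, followed by Dpyd (61.9 ± 10.6), Upb1 (57.3 ± 1.49) and Upp2 (44.9 ± 15.5). Umps (12.1 ± 0.96) and Cda (9.21 ± 2.75) came next, and Cad (1.44 ± 0.19), Ctps (1.28 ± 0.15) and Upp1 (1.18 ± 0.20) were lowest. The order of Dpys and Tymp depends on the length used, because the 856 shared bases count in the length of Tymp while their read pairs were left out. With all its counts set over its 1181 unshared bases, Tymp was at 142 ± 19.1 RPKM in Adult livers, above Dpys on average, with overlapping SDs. This value is too high if some pairs of the shared bases were counted for Tymp. The SDs of neighbours from Dpyd to Upp2, of Umps and Cda, and of the lowest 3 genes overlapped too. These SDs are between mice and do not measure how genes differ within a mouse, which was not tested. In Old livers Dpys was at 54.0 ± 35.7 RPKM, Upp2 at 34.2 ± 24.1, Upb1 at 33.6 ± 15.6, Dpyd at 31.7 ± 18.7 and Tymp at 16.0 ± 6.64, with Cda next at 14.9 ± 7.26, and the spread of these genes overlaps with that of their neighbours in the order. Over its unshared bases Tymp was at 27.7 ± 11.5 RPKM in Old livers, which is the fifth place in this order on either length. Within single mice, the median ratio of Tymp to Cad RPKM was 59.3 in Adult, 4.07 in Old and 6.98 in PDX livers (102, 7.02 and 12.0 over the unshared bases of Tymp), and of Dpyd to Cad RPKM 42.8, 5.87 and 9.93.

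The rest of the pyrimidine network was examined in the same fit. Of 39 further genes, which covered de novo synthesis, salvage, nucleotide kinases, deoxynucleotide supply, nucleotidases, the steps after ring opening and transporters, 35 had enough counts to be tested. Between Old and Adult 0 of these 35 passed edgeR's test as higher and 1, Aldh6a1, as lower, where 6.78% of all genes passed, 4.71% higher and 2.07% lower. Their median log2 fold change was 0.15. DESeq2's Wald test gave an adjusted p for 33 of them and called 5, where it called 16.2% of all genes. These were Nme1 and Nt5c3b as higher and Abat, Agxt2 and Aldh6a1 as lower. Without O2 and O5, edgeR tested 37 and called 2, Nme1 as higher and the mitochondrial thymidine kinase Tk2 as lower, where 7.12% of all genes passed. Uprt, Dctd, Slc28a1 and Slc28a3 were too low to be tested. In each set the member furthest from 0, Agxt2 among the steps after ring opening included, did not pass the threshold in edgeR's test of all 15 mice. Among nucleotide kinases it was Nme1, a nucleoside diphosphate kinase, with 0.79 (SE 0.23, adjusted p = 0.0512). Nme1 passed with relative log expression factors (0.81, adjusted p = 0.0491), with DESeq2 (adjusted p = 0.0138) and without O2 and O5 (1.10, adjusted p = 0.00508). Among nucleotidases it was Nt5c3b with 0.78 (SE 0.23, adjusted p = 0.0557), which passed with DESeq2 (adjusted p = 0.0123) and had 0.54 without O2 and O5 (adjusted p = 0.179). Among salvage enzymes it was deoxycytidine kinase, Dck, with 0.78 (SE 0.48, adjusted p = 0.308), where O2 was at 24.2 CPM and the other 14 mice were at 1.91 to 9.57 CPM. In the deoxynucleotide set it was Rrm2, a subunit of ribonucleotide reductase, with 1.32 (SE 0.67, adjusted p = 0.209), and O2 was again the highest mouse at 24.0 CPM, with 6 proliferation markers summing to 135 CPM in O2 and to 4.01 to 16.7 CPM in the other 14 mice. Among transporters it was the nucleoside transporter gene Slc28a2, with 2.34 (SE 0.72, adjusted p = 0.0594), at 25.9 CPM in O2 and at 0.810 to 5.39 CPM in the others. In de novo synthesis it was Ctps2 with 0.48 (SE 0.24, adjusted p = 0.214). The values without O2 and O5 were 0.25 in Dck, 0.43 in Rrm2, 0.77 in Slc28a2 and 0.02 in Ctps2, with adjusted p from 0.216 to 0.924.

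Purine breakdown, the sister route, gave 0 of 6 genes past the threshold in each of the 3 comparisons. Of all genes 6.78% passed between Old and Adult, 0% between PDX and Old and 2.66% between PDX and Adult. Nothing is read from 0 of 6 beside these shares. Its furthest member between Old and Adult was Uox, urate oxidase, with -0.82 (SE 0.43, adjusted p = 0.227, edgeR), or -0.32 without O2 and O5. Myc, a transcription factor for which Cad is a textbook target, was measured at 2.73 to 11.5 CPM in Adult, 4.20 to 30.8 CPM in Old and 4.54 to 10.3 CPM in PDX mice. Its log2 fold change of Old against Adult was 1.38 (SE 0.51, adjusted p = 0.102, edgeR), with the highest value in O5. It was 0.37 without O2 and O5 (adjusted p = 0.644), while DESeq2 called Myc with all mice (adjusted p = 0.0397).

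Each mouse carried a frailty index, a summed score of health deficits, which ranged from 0.06 to 0.56 in the 10 mice that began at 22 months. Log2 CPM of the 10 members was correlated with it over these 10 mice, a family of 10 relations that pools Old and PDX mice, since 5 mice of a group are too few for a value within it. None passed the Benjamini-Hochberg adjustment. The largest was Cda with Pearson r = 0.795 (permutation p = 0.0115, adjusted p = 0.115) and Spearman rho = 0.577 (permutation p = 0.0842, adjusted p = 0.808). O5 was farthest from the median index, and O4 and P1 were equally far after it, so r was taken again both without O5 and O4 and without O5 and P1. For Cda it was 0.553 and 0.480. Dpys had r = -0.740 (permutation p = 0.0883, adjusted p = 0.221) and rho = 0.122 (permutation p = 0.739), and its r turned to 0.534 and 0.386, so the relation rests on the mice left out. Ctps had r = 0.695 (permutation p = 0.0724, adjusted p = 0.221) and rho = 0.0061 (permutation p = 0.992), and its r turned to -0.565 and -0.232. Tymp had r = 0.169 (permutation p = 0.595) and rho = 0.347 (permutation p = 0.323), with r = 0.628 and 0.540.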

How the data were processed

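Liver mRNA was sequenced from 15 mice, 5 per group. The authors aligned read pairs to mm10 with STAR (version 2.6.0c) and, with featureCounts (Subread 1.6.2, Ensembl 100), counted unique proper pairs per gene by strand; the deposited counts carry no normalization. Log2-scale values that the authors derived through DESeq2 1.23.10 by variance stabilization were used here as an alternative only. Every column carries the label of a mouse. Symbols and coordinates came from GENCODE M21 on GRCm38 (55190 of 55450 IDs matched).

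Counts were filtered with filterByExpr (minimum count 10, minimum total 15), scaled with TMM factors and fitted to all 15 mice with edgeR 4.0.16 in R 4.3.3 (quasi-likelihood test, 1 coefficient per group, two-sided, Benjamini-Hochberg adjustment over 15808 genes, threshold 0.05). Log2 CPM used a prior count of 2. RPKM divided CPM by exon length. Permutation tests drew 100000 resamples (seed 1, two-sided) in Python 3.11.15 with scipy 1.17.1. On simulated counts with a log2 change of 2 in 200 genes, the test called 181 of 15682 genes, 178 of them truly changed, and with no change it called 0 of 15703. The simulation gave all groups the same spread for a gene and held no outlying mouse such as O2 or O5. It planted no smaller change, so it cannot show how often smaller changes are found, or falsely called, in these data.

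The members and gene lists were chosen with earlier results of these data known, so no list carries a test. The text names the 10 members, each other pathway gene past the threshold in a contrast with Adult, the largest change of each pathway list between Old and Adult, Myc, the neighbours of Tymp within 20 kb, and the 5 genes most like Tymp and 3 most like Upp2. Alternatives were other scaling factors, no filter, the Wald test of DESeq2 1.42.0, fits of the 2 groups alone, without O2 and O5, without each mouse and with a replicate block; leaving Tymp and Ctps out of the score, and O5 and P1 out of the correlations, was added after seeing the data. Dbp, Arntl, the sum of the clock genes and Tk2 were named after their values were seen. The authors state that the mice were studied in batches. The labels give no batch for any mouse, so no within-batch value was made. Of 140 listed genes 139 had a row.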

Additional observations from a re-analysis of the deposited data

Results flagged for a closer look

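A mouse was set aside for a closer look where its gap to the nearest mouse of its group exceeded 0.71 of the range of the group, Dixon's critical value for 5 samples. For genes the gap and the range were taken on log2 CPM, while the levels printed beside them are in CPM on the linear scale. Of 69 groups of values examined 6 passed (8.70%), and chance alone passes about 1 in 20. In the Old group, O5 was low in Dpys (gap 0.720 of the range, at 11.7 CPM against 140 to 368 CPM in the other Old mice) and high in Ctps2 (0.789, at 39.3 against 13.7 to 17.1 CPM). O3 was low in Cad (0.717, at 14.4 against 27.8 to 36.0 CPM) and high in the degradation minus synthesis value (0.742, at 0.78 against -1.78 to -1.12). In the Adult group, A1 was low in Agxt2 (0.711, at 145 against 187 to 207 CPM) and A5 was low in Rrm2 (0.756, at 1.75 against 2.87 to 3.37 CPM).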

How the results depend on the processing

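In all 15 fits that left out 1 mouse, Tymp kept its direction in both contrasts with Adult and Cad its call between Old and Adult. The number of genes called between Old and Adult was 1072 with all mice, 665 with no filter, 2524 with the Wald test of DESeq2, 105 from those 10 mice alone, 237 with the replicate block and 156 to 2178 without 1 mouse. Of the 8 members other than Tymp and Ctps, Cad alone was called with all mice, where 6.78% of all genes were. Cad alone was also called with either other scaling, no filter, those 10 mice alone, the replicate block, and without O2 and O5. DESeq2 called Dpyd and Upb1 in addition, where it called 16.2% of all genes. Without 1 mouse Cad was called each time, with Dpyd and Upb1 in addition without O3, and Dpys in addition without O5. Between PDX and Adult 420 genes were called, 1383 with DESeq2, 4529 from those 10 mice alone, 4004 without O2 and O5 and 166 to 1766 without 1 mouse. Tymp carries no test there and is not counted. Among the 8 members other than Tymp and Ctps, Cad alone was called, where 2.66% of all genes were. The same held with either other scaling, no filter or the block. DESeq2 called 2, Cad and Dpyd, where it called 8.88% of all genes. Those 10 mice alone, 5 per group, gave 4, Cad higher and 3 lower (Dpyd, Dpys and Upb1), where 4529 of 15297 genes were called. The same 4 were called without O2 and O5, where 24.6% of all genes were. Without 1 mouse 0 to 4 were called. Between PDX and Old 0 genes were called in each setting. The degradation minus synthesis difference of Old from Adult was -2.06, -1.77 without Tymp and Ctps, -1.76 centred but not divided by the SD and -2.45 to -1.93 without 1 mouse, and of PDX from Adult -1.24, or -1.62 without O2 and O5. Estimates near 0 changed sign. Without O2 and O5, Upp2 for Old against Adult was 0.167, and PDX against Old was -0.233 in Tymp, 0.104 in Upp1, -0.163 in Dpys and -0.340 in Upb1. Umps for PDX against Adult was 0.0101 with upper-quartile factors. Without 1 mouse, the ranges that crossed 0 were -0.0258 to 1.04 in Dck and -0.0761 to 0.173 in Umps for Old against Adult, -0.0896 to 0.0114 in Umps for PDX against Adult, and for PDX against Old -0.385 to 0.175 in Dpyd, -0.12 to 0.293 in Tymp, -0.202 to 0.0472 in Umps, -0.113 to 0.268 in Upb1 and -0.257 to 0.317 in Upp1. Without O5 and O4 the correlation with the frailty index turned to 0.113 in Upp2, 0.534 in Dpys, 0.446 in Upb1, -0.658 in Cad, 0.489 in Umps and -0.565 in Ctps, and without O5 and P1, taken after seeing the data, to 0.380 in Upp2, 0.386 in Dpys, 0.510 in Upb1, 0.637 in Umps and -0.232 in Ctps. The causes were not tested.

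Replicate numbers were not used to pair the mice in the main fit. Same-numbered mice had a mean correlation of deviations of -0.168 between Adult and Old, 0.031 between Adult and PDX and 0.092 between Old and PDX. Mice with different numbers had 0.0435, -0.0078 and -0.0225, and 0, 4 and 4 of 10 mice correlated best with their own number. These values do not settle whether the numbers carry a pairing. With the replicate block Upp1 for PDX against Old was 0.0953.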
